A study of Mus musculus with 16 samples.

Results

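The genes described here were 9 genes of the vascular endothelial cell (Pecam1, Cdh5, Kdr, Flt1, Plvap, Esm1, Tie1, Tek and Egfl7) and Vegfa, the growth factor that these cells respond to, in RNA sequencing of mouse pancreatic islets. They were taken by symbol, and all 10 were present in both expression tables, out of 17864 genes listed in either. The 16 libraries fell into 4 groups of 4. Flox islets came from mice homozygous for a B7-H4 allele (gene Vtcn1) with loxP sites around exon 2, and B7-H4 cKO islets from mice that also carried the Rip-Cre transgene, a Cre recombinase under the rat insulin II promoter. Both groups were on normal chow, and their age is not given in the sources used here. The Flox mice had no Cre, and no islets with Cre and an intact B7-H4 allele were sequenced, so the transgene and the deletion cannot be told apart. The other 2 groups were fed a high-fat diet (HFD) for 8 weeks from 6 weeks of age, then received AAV2/8-Ctrl or AAV2/8-Ins2-B7H4 through the pancreatic duct, and their islets were taken 5 weeks later. The labels call these groups H-ins2-C and H-ins2-O, and they are named Ctrl and OE below. The study's methods give the virus recipients as Flox mice, and the series record calls them WT. Islets were handpicked after collagenase digestion, and the labels do not say whether each library was 1 animal, so that p-values measure the spread between these libraries.

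An islet is threaded by a dense bed of fenestrated capillaries, through which hormones reach the blood. Endocrine cells, β cells above all, make VEGF-A, which signals through the receptor kinase VEGFR2 (Kdr) on the endothelium, while VEGFR1 (Flt1) binds the same ligand tightly and holds its signal in check. Angiopoietins act through a second receptor pair, Tek (also called Tie2) and Tie1, and keep the vessels mature. In a whole islet, endothelial RNA stands beside RNA from endocrine cells and from any exocrine tissue carried over in the preparation, so a lower level in bulk RNA cannot tell fewer endothelial cells from less RNA per cell.

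The members lie on 7 mouse chromosomes in the mm10 build (GRCm38.p6). Kdr and Flt1 are on chromosome 5, Tek and Tie1 on chromosome 4, Plvap and Cdh5 on chromosome 8, Egfl7 on chromosome 2, Pecam1 on chromosome 11, Esm1 on chromosome 13 and Vegfa on chromosome 17. RefSeq promoters of the same build were matched for 7 of the 10 members, with 10 start sites between them. Pecam1, Cdh5 and Plvap were not matched. ETS factors, a family that includes Erg, regulate many endothelial genes and bind around the letters GGAA. The 250 bases before each start were searched on both strands for 3 ETS-type motifs. These were CAGGAA, then the overlapping form AGGAAG, which can share 5 letters with it, and thirdly CCGGAA. At least 1 of them was found in 8 of the 10 windows and for 7 of the 7 members, and 48.8% of the 32851 RefSeq promoters of this length hold at least 1. A match is a description of the letters only.

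Shown here are the windows of Flt1, a VEGF receptor whose level was lower in cKO islets, of Esm1, the gene with the widest spread between libraries, and of Vegfa, the ligand. All are 250 bases, 5′ to 3′ on the strand of the gene, with the ETS-type motifs in capitals, and none overlaps an annotated exon. The Flt1 window lies inside the outer bounds of that gene, before a start that is not its first.
Flt1 (minus strand, chr5:147726012-147726261): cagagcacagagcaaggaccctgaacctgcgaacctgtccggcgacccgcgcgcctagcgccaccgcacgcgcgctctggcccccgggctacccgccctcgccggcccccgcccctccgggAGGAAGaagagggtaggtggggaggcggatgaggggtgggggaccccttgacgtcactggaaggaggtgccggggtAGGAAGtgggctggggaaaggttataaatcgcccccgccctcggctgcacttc
Esm1 (plus strand, chr13:113209409-113209658): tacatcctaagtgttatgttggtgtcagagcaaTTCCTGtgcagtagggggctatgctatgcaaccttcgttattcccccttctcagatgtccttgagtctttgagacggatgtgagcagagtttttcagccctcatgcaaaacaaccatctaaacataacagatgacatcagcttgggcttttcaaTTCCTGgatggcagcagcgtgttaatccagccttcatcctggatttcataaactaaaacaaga
Vegfa (minus strand, chr17:46032378-46032627): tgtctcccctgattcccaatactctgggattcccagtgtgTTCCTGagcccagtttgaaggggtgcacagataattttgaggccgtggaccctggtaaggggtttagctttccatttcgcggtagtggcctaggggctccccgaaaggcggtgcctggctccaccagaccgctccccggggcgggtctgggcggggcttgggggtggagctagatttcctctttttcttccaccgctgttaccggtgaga
In the windows of Esm1 and Vegfa the motif stands on the opposite strand, as TTCCTG. The GC box GGGCGG, the site of Sp1-type factors, occurs 3 times in the Flt1 window, 2 times in that of Vegfa and 0 times in that of Esm1, on either strand, and 32.7% of all promoters hold at least 1. The core of the hypoxia response element, ACGTG, to which HIF factors bind, was found in none of these 3 windows but lies 211 bases before a second Vegfa start, in the window chr17:46025164-46025413 on the minus strand, which overlaps an annotated exon. The same letters are in 16.6% of all promoters.

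The deposited values are FPKM, fragments per kilobase of transcript scaled to the mapped fragments of the library, so levels can be set side by side between genes. The number of reads is unknown. Steps between the lowest values gave relative depths of 0.942 to 1.07 in the chow table and 0.841 to 1.08 in the HFD table. Vtcn1 was listed at 0.0188 to 0.216 FPKM in Flox and 0.0202 to 0.125 FPKM in cKO islets, near the lowest values of the libraries, and at 0.0636 to 0.371 FPKM in Ctrl against 40.0 to 128 FPKM in OE islets. A list of 18 acinar genes, digestive enzymes of the exocrine pancreas, made up 7.26% to 34.8% of the summed FPKM in Flox and 35.5% to 44.8% in cKO libraries. The share was 10.8% to 14.1% in OE libraries. The Ctrl libraries stood apart, at 5.37% in Ctrl1, 55.8% in Ctrl2, 73.0% in Ctrl3 and 2.09% in Ctrl5, and the HFD comparison is therefore given with and without Ctrl2 and Ctrl3. FPKM are scaled to the fragments of a library, so a value depends on the other RNA in it as well.

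All 10 members were above 0.5 FPKM in every library. Vegfa and Plvap, which forms the diaphragms of capillary fenestrae, had the highest levels and Tek the lowest. In Flox islets the mean was 97.4 FPKM ± 14.5 (SD, n = 4) for Vegfa, 63.6 ± 16.1 for Plvap and 29.9 ± 7.25 for Esm1, a secreted proteoglycan of VEGF-stimulated endothelium. Kdr stood at 15.3 FPKM ± 3.05 and Tek at 2.44 ± 0.852 in the same islets. Values of the chow and the HFD libraries come from tables normalized separately, so the order across the 4 groups is a description. By group mean, 7 of the 9 endothelial genes were ordered Ctrl, OE, Flox and cKO, and every endothelial gene was lowest in cKO islets. Kdr had nearly equal means in OE and Ctrl islets, 22.0 FPKM in each. Flt1 was the other exception, with a mean of 10.2 FPKM in Flox and 9.43 FPKM in OE islets. Ranges of Ctrl and OE overlapped for all 10 members. Ranges of OE and Flox islets did not overlap for Cdh5, Kdr, Plvap, Egfl7 and Vegfa, all higher in OE islets, and overlapped for the other 5. For Kdr and Vegfa the gap was small, with 19.0 and 113 FPKM in the highest Flox against 19.2 and 113 FPKM in the lowest OE library. The share of all genes without overlap between OE and Flox islets was not computed, and these groups also differed in diet and virus.

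**Figure D1:**
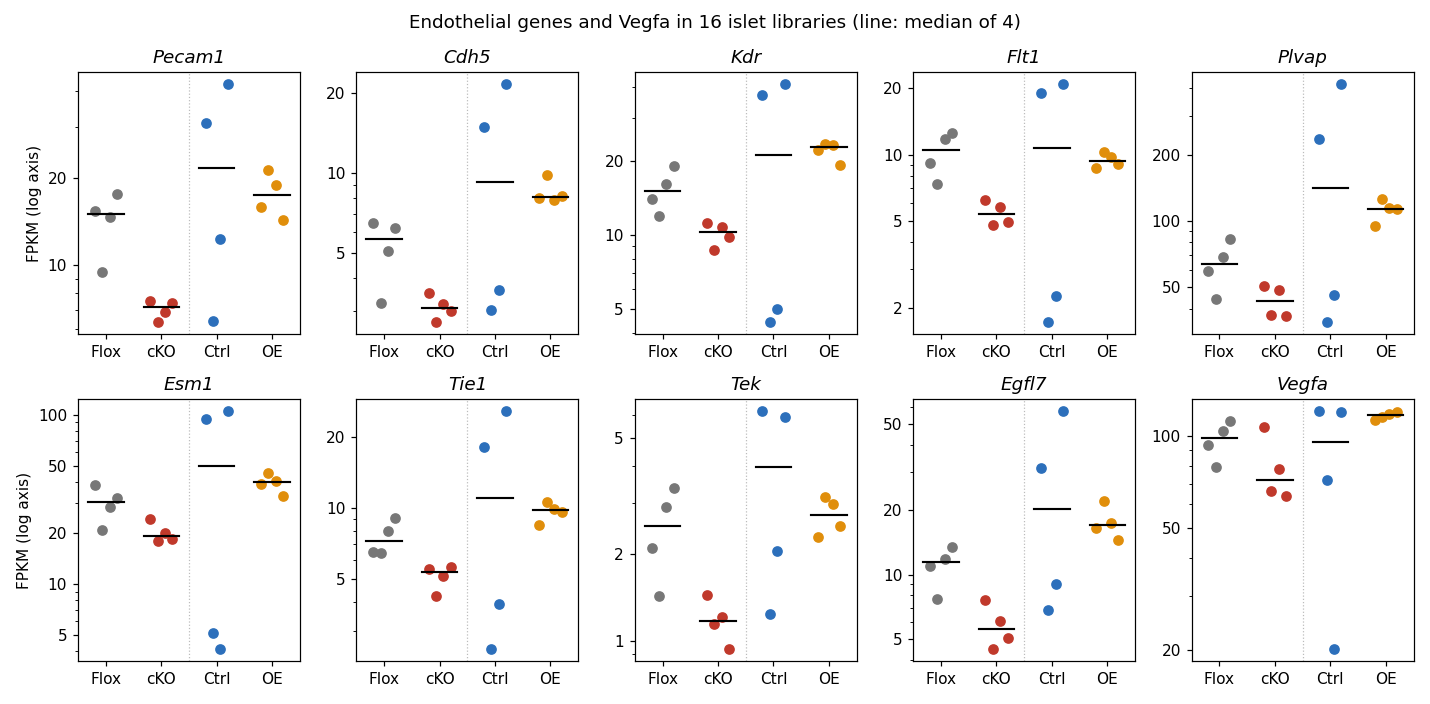
FPKM of the 10 members on a log axis, 1 point per library and 4 libraries per group, with the median as a line; the dotted line separates the chow groups (Flox, cKO) from the HFD groups (Ctrl, OE), whose table was normalized separately. The cKO points sit at the low end of the chow panels for the endothelial genes, the Ctrl points split into a high and a low pair for each endothelial gene, and the OE points of Vegfa lie within 113 to 120.5 FPKM.

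The comparison of B7-H4 cKO with Flox islets asks how the islet transcriptome differs when B7-H4 is deleted in β cells on chow. Vtcn1 was too low in both groups for these values to show the deletion, and the groups are named by their labels. All 9 endothelial genes had lower means in cKO islets, and 6 of them fell at an adjusted p under 0.05 (limma on log2(FPKM + 0.5), Benjamini-Hochberg over 11804 genes). These were Pecam1, Egfl7, Flt1, Tek, Cdh5 and Kdr. Lower values at this threshold were common, with 12.8% of all genes tested, and the median of all genes was a log2 fold change of -0.34 against -0.63 for the 9 endothelial genes. None of the 6 passed the study's fold minimum, an absolute log2 fold change over 1, which 0.974% of all genes passed on the lower side. The share of acinar genes, as given above, separated these groups without overlap, with cKO on the higher side. Over all genes 40 rose and 115 fell past both thresholds, and after the median-of-ratios scaling described below the split was 26 and 10.

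Pecam1 encodes CD31, the adhesion molecule by which endothelium is usually stained. In Flox16, Flox17, Flox20 and Flox21 it was listed at 15.3, 9.48, 14.7 and 17.6 FPKM, and at 7.55, 6.36, 6.89 and 7.42 FPKM in cKO8, cKO9, cKO12 and cKO38. Every cKO library was below every Flox library, and Flox17 was the lowest of its group. The log2 fold change of Pecam1 was -0.94 (SE 0.19, limma adjusted p = 0.0148), the largest of the members. Cdh5, VE-cadherin of the endothelial junctions, was at 6.44, 3.24, 5.07 and 6.19 FPKM in the Flox and 3.51, 2.73, 3.20 and 3.003 FPKM in the cKO libraries. Its groups overlapped through Flox17, which was below cKO8, and its log2 fold change was -0.63 (SE 0.21, limma adjusted p = 0.0468).

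Both VEGF receptors fell. Flt1 was at 9.18, 7.35, 11.8 and 12.6 FPKM in Flox and 6.18, 4.78, 5.78 and 4.93 FPKM in cKO islets, without overlap, at a log2 fold change of -0.84 (SE 0.20, limma adjusted p = 0.0194). Kdr was at 14.0, 11.9, 16.2 and 19.0 FPKM in Flox and 11.2, 8.69, 10.7 and 9.79 FPKM in cKO islets. The Kdr groups did not overlap either, with cKO8 just below Flox17, and the log2 fold change was -0.56 (SE 0.18, limma adjusted p = 0.0481).

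Of the angiopoietin receptors, Tek was at 2.10, 1.43, 2.89 and 3.36 FPKM in Flox and 1.44, 1.14, 1.21 and 0.935 FPKM in cKO islets. Flox17 and cKO8 were level, and the log2 fold change was -0.77 (SE 0.22, limma adjusted p = 0.0319). Tie1, its partner, was at 6.53, 6.43, 8.01 and 9.10 FPKM in Flox and 5.53, 4.24, 5.16 and 5.60 FPKM in cKO islets. The groups of Tie1 did not overlap, but its log2 fold change of -0.50 missed the threshold (SE 0.19, limma adjusted p = 0.0616).

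Egfl7, a protein that endothelial cells secrete into the vessel matrix, was at 10.997, 7.71, 11.9 and 13.5 FPKM in Flox and 7.64, 4.48, 6.06 and 5.08 FPKM in cKO islets. It was the second of the members by size, with a log2 fold change of -0.87 (SE 0.21, limma adjusted p = 0.0202), and the highest cKO library lay just under the lowest Flox library. Plvap was at 59.1, 44.2, 68.5 and 82.6 FPKM in Flox and 50.9, 37.7, 48.8 and 37.0 FPKM in cKO islets, and its groups overlapped (log2 fold change -0.52, SE 0.19, limma adjusted p = 0.0584). Esm1 was at 38.2, 20.9, 28.5 and 32.2 FPKM in Flox and 24.1, 18.0, 20.1 and 18.4 FPKM in cKO islets, with 1 Flox library, Flox17, inside the cKO range (log2 fold change -0.54, SE 0.19, limma adjusted p = 0.0562). The groups did not overlap for Pecam1, Kdr, Flt1, Tie1 and Egfl7, all lower in cKO islets, and 15.4% of all genes tested were lower without overlap.

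Vegfa, the ligand, was at 93.6, 79.2, 104 and 113 FPKM in Flox and 108, 66.2, 78.1 and 63.9 FPKM in cKO islets. The library cKO8 stood among the Flox values and the other 3 cKO libraries were below every Flox library. The log2 fold change of Vegfa was -0.32 (SE 0.17, limma adjusted p = 0.152), close to the -0.34 of the median gene. It did not pass the threshold in any of the 8 fits that left out 1 library, and passed it with the 3 libraries per group of the study's heatmaps, which leave out cKO8 and Flox17 (log2 fold change -0.58, limma adjusted p = 0.00451). Those 3 libraries per group put all 10 members at an adjusted p under 0.05, where 63.5% of all genes were lower at that threshold. Pecam1, Flt1, Tek and Egfl7 then also passed the fold minimum, which 4.63% of all genes did.

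To take out the shift common to most genes, each library was divided by its median-of-ratios factor, the median over genes of its ratio to the geometric mean of the 8 libraries. After this scaling 3 of the 9 endothelial genes were still lower at an adjusted p under 0.05, against 1.25% of all genes. These were Pecam1 (log2 fold change -0.57, SE 0.10, limma adjusted p = 0.0379), Egfl7 (-0.50, SE 0.10, adjusted p = 0.0456) and Flt1 (-0.48, SE 0.07, adjusted p = 0.0299). Tek had a similar size at -0.47 (SE 0.13, limma adjusted p = 0.0718). Cdh5, Kdr, Esm1, Tie1 and Plvap were between -0.29 and -0.14. Vegfa changed sign, to 0.06 (SE 0.11, limma adjusted p = 0.747). In scaled FPKM the means were 12.2 ± 1.52 in Flox and 8.01 ± 0.742 in cKO islets for Pecam1, 8.70 ± 0.487 and 6.11 ± 0.258 for Flt1, and 84.0 ± 3.59 and 88.3 ± 13.2 for Vegfa (SD, n = 4). Scaled values did not overlap for Pecam1, Kdr, Flt1, Tek and Egfl7, and 7.66% of all genes were lower without overlap on this scale.

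Scaling to the summed FPKM outside the acinar list gave nearly the same sizes, -0.59 for Pecam1, -0.52 for Egfl7 and -0.49 for Flt1, but no member passed (limma adjusted p = 0.0696, 0.0949 and 0.0751). With the acinar share as a covariate no member passed either, nor did any gene in the table, and Pecam1 was at -0.46 (SE 0.19, limma adjusted p = 0.591). Genes that passed in the unscaled fit also depended on single libraries. Without Flox17, 9 members passed, where 57.2% of all genes were lower at that threshold, and without Flox16, 7 did, where 21.3% were. Without cKO8 there were 5 (12.9% of all genes) and without cKO12 3 (2.78%). Without Flox20, Flox21 or cKO38 there was 1 each (1.01%, 0.997% and 0.608% of all genes), and without cKO9 0 (0.144%). The members' counts moved with those of all genes. Pecam1 passed in 7 of these 8 fits, with a log2 fold change between -1.12 and -0.83.

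**Figure D2:**
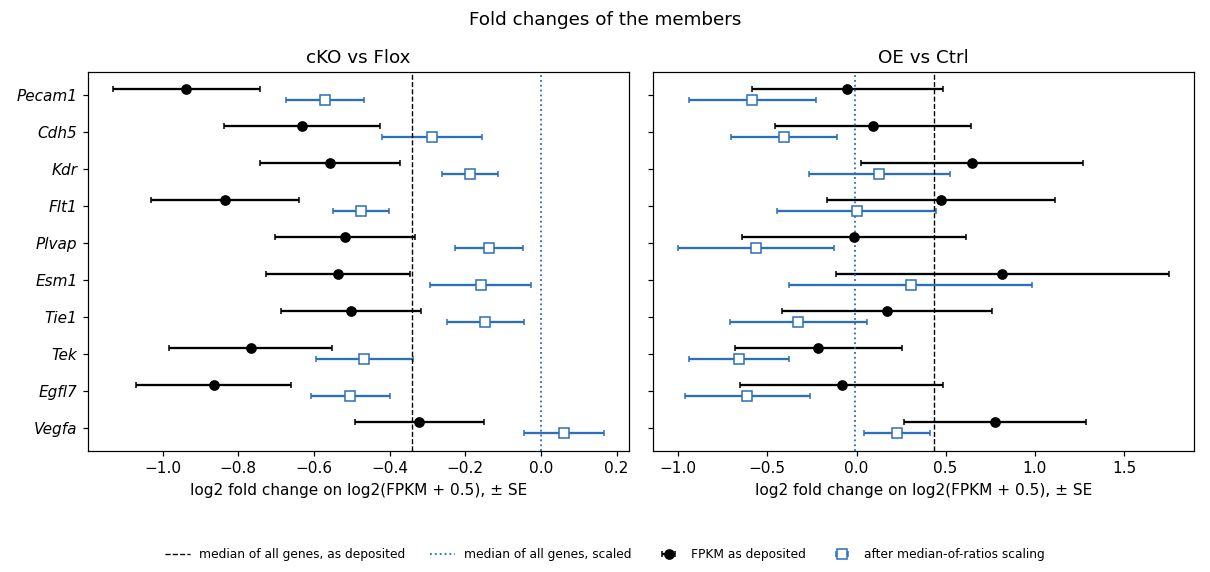
Log2 fold change of each member with its standard error, for cKO vs Flox (left) and OE vs Ctrl (right), 4 libraries per group; filled circles are FPKM as deposited, open squares are values after median-of-ratios scaling, and the vertical lines mark the median of all genes on each scale. In cKO vs Flox each of the 9 endothelial genes lies left of the median of its scale and Vegfa lies near it, while in OE vs Ctrl the genes stand on both sides.

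The genes were also compared with each other by their ratio to Pecam1 within a library. Between Flox and cKO islets the ratio of Tek to Pecam1 was 0.169 ± 0.0295 and 0.168 ± 0.0287, and that of Flt1 was 0.722 ± 0.0914 and 0.768 ± 0.0780 (SD, n = 4), with overlapping ranges. The ratio of Kdr to Pecam1 was 0.910, 1.26, 1.10 and 1.08 in Flox and 1.49, 1.37, 1.56 and 1.32 in cKO libraries. The ratio of Plvap was 3.85 to 4.68 in Flox and 4.995 to 7.07 in cKO libraries, and that of Vegfa 6.10 to 8.36 and 8.61 to 14.3, again without overlap. For 59.1% of all genes the ratio to Pecam1 was higher in every cKO than in every Flox library, beside 3 of the 9 member ratios.

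Other endothelial genes were lower as well. Of a list of 30 further endothelial genes, 26 were tested and all 26 had a negative log2 fold change. At an adjusted p under 0.05, 7 fell, namely Adgrl4, Emcn, Erg, Esam, Ptprb, Rhoj and S1pr1, beside 12.8% of all genes tested. Their median log2 fold change was -0.53, beside -0.34 for all genes. After median-of-ratios scaling not all 26 were negative. They then ran from -1.01 to 0.09 with a median of -0.21, beside -0.00086 for all genes. S1pr1, the receptor for the blood lipid sphingosine 1-phosphate that stabilises vessels, was the 1 that passed the fold minimum, with 2.19 FPKM ± 0.456 in cKO and 6.32 ± 1.69 in Flox islets (SD, n = 4), a log2 fold change of -1.32 (SE 0.21, limma adjusted p = 0.00744). S1pr1 remained at -0.99 after median-of-ratios scaling (limma adjusted p = 0.0216), and Ptprb and Adgrl4 also passed on that scale, beside 1.25% of all genes. Vwf, von Willebrand factor of larger vessels, had the second largest difference at -1.20 and did not pass (SE 0.42, limma adjusted p = 0.0764). It was at 0.106 FPKM ± 0.0614 in cKO and 1.11 ± 1.02 in Flox islets, so it was tested only because of its Flox values.

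Ligands, regulators and neighbours of the vessel wall were counted in the same way, beside the 12.8% of all genes that were lower at this threshold. Of 8 tested VEGF and angiopoietin genes, 1 fell, Vegfc (log2 fold change -0.82, SE 0.23, limma adjusted p = 0.0310), the ligand of the lymphatic receptor, while Vegfb was at -0.59 (adjusted p = 0.0518). Of 5 tested HIF-pathway regulators, 2 fell, Hif1a (-0.58, SE 0.18, limma adjusted p = 0.0440) and the prolyl hydroxylase gene Egln1 (-0.56, SE 0.18, adjusted p = 0.0480). Of 9 tested hypoxia-induced genes, 2 fell, P4ha1 (-0.92, limma adjusted p = 0.0253) and Bnip3 (-0.56, adjusted p = 0.0357), and the list's median of -0.34 was that of all genes. Another 2 of the 9 had positive log2 fold changes, up to 0.39. After median-of-ratios scaling the hypoxia-induced genes ran from -0.55 to 0.73, with a median of 0.04. Of 6 Notch-pathway genes, 1 fell, the ligand Jag2 (-0.68, limma adjusted p = 0.0321). Of 11 genes of the vascular basement membrane, 3 fell, Sparcl1 (-0.76, limma adjusted p = 0.0194), Col4a1 (-0.69, adjusted p = 0.0465) and Sparc (-0.52, adjusted p = 0.0447). Of 10 pericyte genes, 2 fell, Rgs5 (-0.62, limma adjusted p = 0.0319) and Mcam (-0.57, adjusted p = 0.0436). Other cells of the islet had lower genes too. Of 10 β-cell genes, 5 fell, with Ucn3, a peptide of mature β cells, past the fold minimum (-1.08, limma adjusted p = 0.0273), Slc30a8, the zinc transporter of the insulin granule, at -0.81 (adjusted p = 0.0141), and Iapp, Ins2 and Slc2a2 at -0.80, -0.72 and -0.47. In the same list 2 genes had positive log2 fold changes, up to 0.33. After median-of-ratios scaling the β-cell genes ran from -0.69 to 0.71, with a median of -0.05. Of 5 fibroblast genes, 2 fell, the matrix proteoglycans Dcn (-1.28, limma adjusted p = 0.0309) and Lum (-0.79, adjusted p = 0.0294), and of 5 α- and δ-cell genes 1 fell, Gcg (-0.77, adjusted p = 0.0460). None of these lists held a gene that passed as lower after median-of-ratios scaling. Median log2 fold changes were -0.56 for the HIF-pathway, -0.55 for the pericyte and -0.56 for the fibroblast genes, beside -0.63 for the endothelial members. They were -0.45 for the VEGF and angiopoietin genes and -0.43 for the basement membrane and the β-cell genes. For the Notch-pathway genes the median was -0.33, and for the α- and δ-cell genes -0.28. Iapp, Ins2, Slc2a2, Emcn, Erg, Esam, Ptprb, Rhoj and Adgrl4 above and Egln1, Sparc, Rgs5 and Mcam lay outside the rule for named genes and were named after their values were seen. Of 8 leukocyte genes, 0 passed, with a median of -0.38, nor did any of 4 duct or 4 red cell and platelet genes, and of 18 acinar genes 0 passed, though all 18 had positive log2 fold changes with a median of 1.42. Of these 4 were higher without overlap of the groups, as were 1.32% of all genes.

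The comparison of OE with Ctrl islets asks what B7-H4 expressed from a virus under the insulin promoter changed in islets of HFD-fed mice. No member passed the test, and Vegfa and all 9 endothelial genes overlapped between the groups. Of all genes 5.61% were higher and 0.964% lower in OE islets without overlap. Among the 12132 genes tested, 4 were higher at an adjusted p under 0.05, or 0.0330%, and 0.00% lower. The 4 were Vtcn1 and, named after their values were seen, Ghrl, Prph and Vip. The count of genes at an unadjusted p under 0.05 was 677 higher and 101 lower in OE islets, or 5.58% and 0.833%, and none was a member.

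The endothelial genes spread less among the OE than among the Ctrl libraries. Pecam1 was at 15.9, 21.4, 19.0 and 14.4 FPKM in OE1 to OE4 and at 31.1, 6.42, 12.3 and 42.4 FPKM in Ctrl1, Ctrl2, Ctrl3 and Ctrl5. Kdr was at 22.2, 23.4, 23.2 and 19.2 FPKM in the OE and 37.2, 4.41, 4.98 and 41.3 FPKM in the Ctrl libraries. The OE values lay between a high pair, Ctrl1 and Ctrl5, and a low pair, Ctrl2 and Ctrl3. The same split held for Plvap, at 235, 34.8, 46.2 and 419 FPKM in the Ctrl and 94.9, 125, 114 and 113 FPKM in the OE libraries. Esm1 had the widest spread, at 93.9, 5.14, 4.09 and 105 FPKM in the Ctrl libraries, a ratio of 25.7 between the highest and the lowest, against 1.36 in the OE libraries at 39.1, 45.001, 40.7 and 33.1 FPKM. The range of Esm1 in Ctrl was wider than that of 99.2% of all genes. Over the 9 endothelial genes the median range within Ctrl was 3.09 on the log2 scale, and 1.94 over all genes. Within OE it was 0.39, and 0.26 over all genes.

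The remaining endothelial genes split in the same way. Flt1 was at 19.2, 1.72, 2.26 and 21.01 FPKM, Tie1 at 18.1, 2.51, 3.91 and 25.8 FPKM and Cdh5 at 14.9, 3.04, 3.61 and 21.7 FPKM in Ctrl1, Ctrl2, Ctrl3 and Ctrl5. Tek was at 6.21, 1.24, 2.04 and 5.92 FPKM and Egfl7 at 31.4, 6.86, 9.02 and 57.7 FPKM in the same libraries. In FPKM as deposited, Ctrl1 and Ctrl5 were above and Ctrl2 and Ctrl3 below every OE library for all 9 genes. With all 4 Ctrl libraries, log2 fold changes ran from -0.22 for Tek (SE 0.47, limma adjusted p = 0.799) to 0.82 for Esm1 (SE 0.93, limma adjusted p = 0.658), with 5 of the 9 positive and 4 negative. Median-of-ratios scaling turned Cdh5 and Tie1 negative and put Tek at -0.66 (SE 0.28, limma adjusted p = 0.206). The scaling factor itself split the libraries alike, at 1.45 in Ctrl1, 1.47 in Ctrl5, 0.651 in Ctrl2, 0.338 in Ctrl3 and 1.19 to 1.24 in OE. After scaling Ctrl3 was above every OE library for Pecam1, Cdh5, Plvap, Tie1, Tek and Egfl7. Its scaled Pecam1 was 36.4 against 11.9 to 17.5 in OE. Kdr, Flt1 and Esm1 stayed below. How many other genes split like this was not counted.

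Vegfa was at 113, 116, 118 and 120.5 FPKM in the OE libraries, the tightest of the members, with a ratio of 1.07 between the highest and the lowest. In Ctrl1, Ctrl2, Ctrl3 and Ctrl5 it was at 121, 72.3, 20.1 and 120.1 FPKM, so that Ctrl1 and Ctrl5 were level with the OE libraries while their endothelial genes were above them. The log2 fold change of Vegfa was 0.78 (SE 0.51, limma adjusted p = 0.591), and 0.23 after median-of-ratios scaling (SE 0.18, limma adjusted p = 0.463).

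Leaving out Ctrl2 and Ctrl3, a choice made after their acinar shares of over 50% were seen, changed the comparison. All 9 endothelial genes were then lower in OE islets at an adjusted p under 0.05, as were 21.9% of all genes, and 8 of them passed the fold minimum, as did 4.61% of all genes. Plvap was at -1.49 (SE 0.22, limma adjusted p = 0.00700), Esm1 at -1.33 (SE 0.13, adjusted p = 0.00352) and Kdr, the 1 under the fold minimum, at -0.82 (SE 0.11, adjusted p = 0.00517). Vegfa was at -0.05 (SE 0.09, limma adjusted p = 0.729). This fit rests on 2 Ctrl libraries, Ctrl1 and Ctrl5. Both were above every OE library for all 9 endothelial genes as deposited, and Ctrl2 and Ctrl3 below, so the choice fixed the direction. The study's heatmaps used Ctrl2, Ctrl3 and Ctrl5 but not Ctrl1. Ctrl1 and Ctrl5 also differed from the OE libraries in other cells. Summed FPKM of the 11 pericyte genes were 175 in Ctrl1 and 222 in Ctrl5 against 44.9 to 69.4 in the OE libraries. Summed FPKM of 8 leukocyte genes were 165 and 545 against 86.8 to 112, and of 8 red cell and platelet genes 439.8 and 1703 against 49.4 to 416. The 5 α- and δ-cell genes made up 15.3% of the summed FPKM in Ctrl5, 3.85% in Ctrl1 and 4.44% to 5.18% in OE libraries. The part of these cells in the result was not tested.

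Across the 4 groups the endothelial sum and Vegfa stood differently against the acinar share. The summed FPKM of the 9 endothelial genes was 487 in Ctrl1 and 739.7 in Ctrl5, 66.1 in Ctrl2 and 88.4 in Ctrl3, 216 to 271 in OE, 113 to 196 in Flox and 88.1 to 118 in cKO libraries. As a share of the FPKM outside the acinar list it was 0.0279% ± 0.00427 in Flox, 0.0231% ± 0.00210 in cKO, 0.0597% ± 0.0401 in Ctrl and 0.0372% ± 0.00396 in OE islets (SD, n = 4). Ctrl1 at 0.0740% and Ctrl5 at 0.109% remained the highest of all 16 libraries and Ctrl2 at 0.0182% the lowest, while Ctrl3 at 0.0378% came among the OE libraries. The same share of Vegfa was 0.0171% ± 0.00114 in Flox, 0.0178% ± 0.00343 in cKO, 0.0161% ± 0.00512 in Ctrl and 0.0182% ± 0.000544 in OE islets. For Vegfa 15 of the 16 libraries lay between 0.0150% and 0.0226%, and Ctrl3 stood apart at 0.00860%. The β-cell list, which includes both insulin genes, made up 4.38% of the summed FPKM in Ctrl3 and 19.1% to 55.1% in the other 15 libraries.

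**Figure D3:**
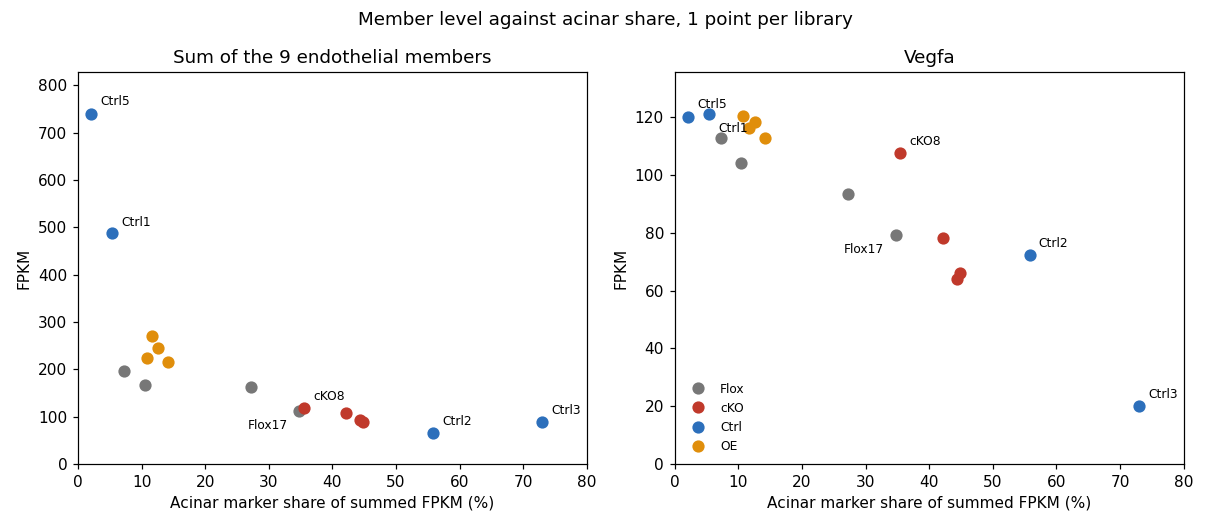
Summed FPKM of the 9 endothelial genes (left) and FPKM of Vegfa (right) against the acinar marker share of each library in percent, 1 point per library coloured by group. Ctrl1 and Ctrl5 have the lowest acinar shares and the highest endothelial sums, while their Vegfa is level with that of the OE libraries; Ctrl3 has the highest acinar share and the lowest Vegfa.

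The endothelial genes did not all spread in proportion. Esm1 was 16.4% to 23.6% of the summed FPKM of the 9 genes in Flox, 18.6% to 20.4% in cKO and 14.8% to 18.1% in OE libraries. In the Ctrl libraries it was 19.3% in Ctrl1 and 14.2% in Ctrl5 but 7.77% in Ctrl2 and 4.63% in Ctrl3. The ratio of Esm1 to Pecam1 was 3.02 in Ctrl1, 0.800 in Ctrl2, 0.333 in Ctrl3 and 2.48 in Ctrl5, beside 2.10 to 2.45 in OE libraries. Flt1 and Kdr also had their lowest ratios to Pecam1 in Ctrl3, at 0.184 and 0.405, and the next lowest in Ctrl2, at 0.268 and 0.686. Tek, in contrast, kept a ratio to Pecam1 of 0.140 to 0.200 in the 4 Ctrl libraries. These ratios within a library do not depend on the scaling.

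**Figure D4:**
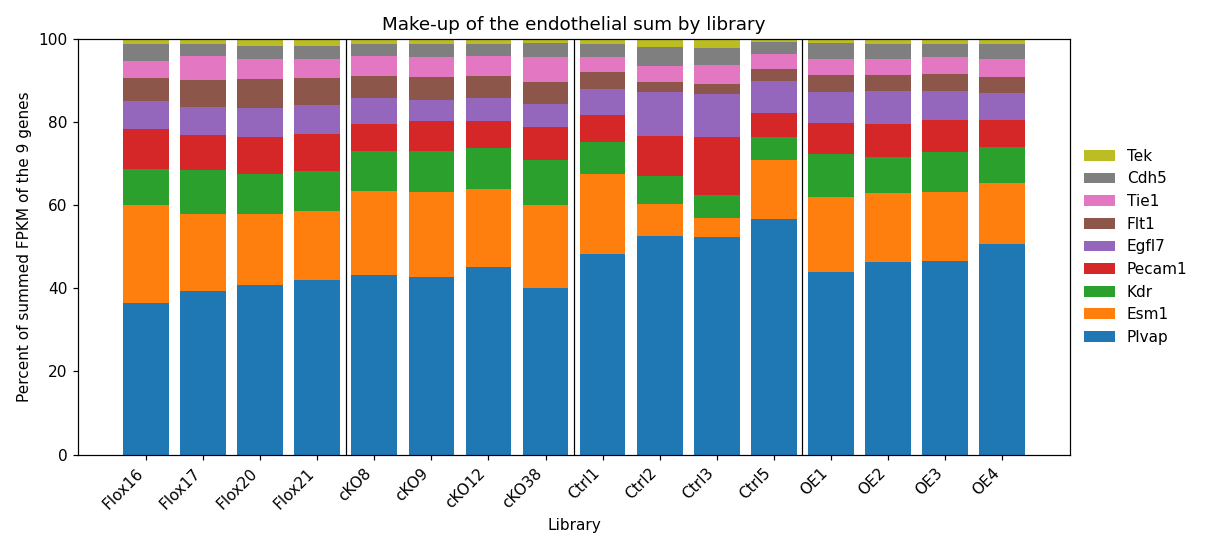
Share of each of the 9 endothelial genes in their summed FPKM, in percent, as 1 stacked bar for each of the 16 libraries, with vertical lines between the groups. Plvap is the largest part in every library, and the Esm1 part is smallest in Ctrl2 (7.77%) and Ctrl3 (4.63%).

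No gene of the other lists passed in the HFD comparison. Of the 30 further endothelial genes 27 were tested and 0 passed, with 10 positive and 17 negative log2 fold changes and a median of -0.12, beside 0.44 for all genes. After median-of-ratios scaling all 28 tested were negative, between -1.56 and -0.02, with a median of -0.56. Sox18, a transcription factor of developing vessels, had the largest difference at -1.07 (SE 0.53, limma adjusted p = 0.591). All 5 tested HIF-pathway regulators and all 7 tested VEGF and angiopoietin genes had positive log2 fold changes, with medians of 0.64 and 0.26, and 0 passed. After scaling the medians were 0.22 and -0.18, Epas1 turned to -0.22 and the VEGF and angiopoietin genes ran from -0.94 to 0.07. The 10 β-cell genes were all positive, with a median of 1.121 and of 0.57 after scaling, and the 5 fibroblast genes all negative, with medians of -0.69 and -1.16, and 0 of either passed. Epas1 was named after its values were seen.

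The genes whose pattern was most like that of the endothelial members were sought over 10378 other genes, as the lower of 2 Pearson correlations, each over the 8 libraries of a table after median-of-ratios scaling. For the mean log2 value of the 9 endothelial genes these were S1pr1 (0.95), Fgd5 (0.93), Pip4k2b (0.92), Ptprb (0.92) and Snrpd1 (0.92). Of the list of further endothelial genes 23 could be ranked, 9 of them among the first 100 and 16 among the first 500. Members were themselves part of that mean, which raises their own values. They ranged from 0.93 for Flt1 to 0.46 for Tie1, which was the least like the mean in the chow table and among the most like it in the HFD table (0.99). For Vegfa the correlation to the endothelial mean depended on the scale, at -0.16 in the chow and -0.62 in the HFD table after scaling, while on FPKM as deposited the lower of both was 0.68. The 5 genes most like Vegfa were Pitpnm3 (0.91), Zkscan16 (0.81), Casz1 (0.79), Mesp1 (0.79) and Ccnt2 (0.78), and none was in a list used here. Points share their libraries and the acinar share, and these values are a description.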

How the data were processed

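Islet RNA of 16 libraries, 4 per group, was sequenced, and the authors deposited FPKM in 1 table for the Flox and cKO libraries (17361 genes) and another for the Ctrl and OE libraries (17318 genes). The submitters' processing notes name the genome build mm10, and the aligner, counter and annotation are not given in the sources used here. Reads per library are unknown, so no counting interval is given. Libraries were grouped by their labels. The test was limma 3.58.1 (R 4.3.3, eBayes with trend and robust set) on log2(FPKM + 0.5), for each table on its own and for genes averaging 0.5 FPKM or more in its 8 libraries. Two-sided p-values were adjusted over all genes tested (Benjamini-Hochberg). Fold changes on this scale understate those of low genes. A gene passed at an adjusted p under 0.05, and the study's fold minimum was an absolute log2 fold change over 1. The members and the gene lists were chosen with earlier results of these data known. Apart from the members, named genes were Vtcn1, those past both thresholds or with the 2 largest absolute fold changes of a list, and the 5 most like the endothelial mean or Vegfa, sought where both tables averaged 1 FPKM or more. The calling was tested on simulated data. Alternatives were other pseudocounts and filters, 2 scalings, the acinar share as a covariate, a plain empirical Bayes fit, a replicate block, the heatmap libraries, no fold minimum and each library left out in turn.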

Additional observations from a re-analysis of the deposited data

Results flagged for a closer look

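Cdh5 in the OE group had a library apart from the others. It was at 9.80 FPKM in OE2 and between 7.88 and 8.15 FPKM in OE1, OE3 and OE4, and the gap to the nearest library was 0.862 of the group's whole range, above Dixon's 95% critical value for 4 libraries. It was 1 of 40 groups tested, 4 for each of the 10 members, and chance flags about 1 in 20.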

How the results depend on the processing

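Depth in reads is unknown, so the counting error of low genes such as Tek could not be given. With the study's fold minimum, 0 members were called in either comparison. Without it 6 were called in cKO vs Flox, where 12.8% of all genes were lower. With the minimum, the 3 heatmap libraries per group gave 4, where 4.63% of all genes were lower past both thresholds. With each library left out in turn there were 0 to 2, the 2 without Flox17 (Flox replicate 2), where 3.06% were. In OE vs Ctrl the count was 8 without Ctrl2 and Ctrl3, where 4.61% were, an alternative chosen after seeing the data. It was 0 under every other one. The causes were not tested.

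In cKO vs Flox, the log2 fold change of Vegfa turned from -0.32 to 0.061 with median-of-ratios scaling, 0.046 with scaling outside the acinar list and 0.16 with the acinar covariate, which also turned Plvap from -0.52 to 0.11. Keeping every gene with a mean above 0 FPKM, of which there were 17361, left 0 members and 0 genes at an adjusted p under 0.05 by limma, and Pecam1 then stood at 0.0838. In OE vs Ctrl, Cdh5 turned from 0.09 to -0.41 and Tie1 from 0.17 to -0.33 with median-of-ratios scaling, and to -0.39 and -0.32 with scaling outside the acinar list. With the acinar covariate Cdh5 was at -0.69, Kdr at -0.36, Flt1 at -0.56, Esm1 at -0.68 and Tie1 at -0.70. With the heatmap libraries Pecam1 turned to 0.29, Plvap to 0.33, Tek to 0.10 and Egfl7 to 0.25. Without Ctrl2 and Ctrl3, Cdh5 turned to -1.05, Kdr to -0.82, Flt1 to -1.05, Esm1 to -1.33, Tie1 to -1.13 and Vegfa to -0.045. With each library left out in turn, log2 fold changes in OE vs Ctrl ran from -0.53 to 0.35 for Pecam1, -0.32 to 0.56 for Cdh5, -0.089 to 1.004 for Flt1, -0.57 to 0.62 for Plvap, -0.35 to 0.69 for Tie1, -0.58 to 0.069 for Tek and -0.54 to 0.45 for Egfl7, and 0 of these 8 fits put a member at an adjusted p under 0.05. In cKO vs Flox no such fit changed the direction of a member. Over all genes, 40 rose and 115 fell past both thresholds in cKO vs Flox, and the counts were 23 and 61 with a pseudocount of 1, 70 and 237 with 0.1, 121 and 151 without trend and robust fitting, 102 and 166 with the block, 153 and 546 with the heatmap libraries, 26 and 10 and then 25 and 7 with the scalings, 0 and 0 with the acinar covariate, and 2 to 158 and 16 to 362 with each library left out.

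The labels give no link between libraries of the same replicate number, such as cKO8 and Flox16, beyond that number. Correlations of their deviations from the group means were -0.21 to 0.12 in cKO vs Flox and -0.13 to 0.10 in OE vs Ctrl. With the replicate number as a block, 8 members were at an adjusted p under 0.05 in cKO vs Flox instead of 6, with Plvap (limma adjusted p = 0.0283) and Esm1 (0.0360) added and 0 past the fold minimum. Of all genes 20.8% were then lower instead of 12.8%. In OE vs Ctrl the block gave 0 members.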

Other observations

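Lyve1, a hyaluronan receptor of lymphatic endothelium that some macrophages also carry, was at 9.44 FPKM ± 9.23 (SD, n = 4) in Flox and 0.608 ± 0.105 in cKO islets, a log2 fold change of -2.46 that did not pass (SE 0.90, limma adjusted p = 0.0971). Prox1, the transcription factor of lymphatic fate that endocrine cells also express, was at 6.63 FPKM ± 0.845 in Flox and 5.57 ± 0.573 in cKO islets (limma adjusted p = 0.305). The summed FPKM of the 5 lymphatic genes was 7.17 in Flox16, 9.22 in Flox17, 21.5 in Flox20 and 29.1 in Flox21, against 5.56 to 7.14 in the cKO libraries, 4.15 to 10.8 in Ctrl and 10.04 to 10.7 in OE libraries.

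The ratio of the summed endothelial FPKM to Vegfa was 1.73, 1.42, 1.61 and 1.74 in Flox16, Flox17, Flox20 and Flox21 and 1.10, 1.33, 1.38 and 1.44 in cKO8, cKO9, cKO12 and cKO38, so that the groups met at Flox17 and cKO38. It was 1.86 to 2.33 in the OE libraries and 4.02, 0.915, 4.40 and 6.16 in Ctrl1, Ctrl2, Ctrl3 and Ctrl5. By this ratio, which scaling does not change, Ctrl1, Ctrl3 and Ctrl5 lay above every OE library and Ctrl2 below.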
